A study of Mus musculus with 18 samples.

Results

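Accessible chromatin of haematopoietic stem cells (HSC) lacking Kmt2c was compared with that of wild-type HSC from vehicle-treated mice. The comparison takes 6 of the 18 samples of the series. It was chosen by group label, as 2 samples labelled Kmt2c f/f; Vav-Cre HSCs against 4 samples of wild-type HSC given PBS. Each group has a single deposited list of accessible regions, and after overlapping rows were merged the knockout list held 48620 regions and the vehicle list 80100.

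Kmt2c, also called Mll3, is a methyltransferase that places marks on lysine 4 of histone H3, mainly at enhancers, the distal elements that raise the transcription of genes. HSC are the rare bone marrow cells that renew themselves and give rise to all blood lineages, and enhancers near genes such as Runx1 and Mecom help to hold them in that state. ATAC-seq marks open chromatin by letting the Tn5 transposase cut DNA that is not wrapped in nucleosomes, so an accessible region is a candidate promoter or enhancer and does not by itself show that a gene is expressed.

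The knockout HSC came from mice of 8 weeks with both Kmt2c alleles floxed and Cre driven by Vav sequence, which is active in blood cells; no treatment is given for them. The vehicle HSC came from wild-type mice of 16 weeks that had 3 injections of PBS, spaced 3 weeks apart. Genotype, age, injections, number of pooled samples and length of the list therefore all differ between the groups, and their parts cannot be told apart. The remaining lists were used only to look regions up: HPC, the more mature progenitors, without Kmt2c (2 samples) and wild type (4 samples), and wild-type HSC (2 samples), all of 8 weeks, and wild-type HSC of 16 weeks after 3 injections of 5-fluorouracil at 150 mg/kg (4 samples). The labels do not say whether samples came from separate animals, and since a list pools its samples no difference could be set against a spread between replicates.

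The knockout list was the shorter one. Its regions had a median width of 484 bp and covered 25.9 Mb in all, against 635 bp and 55.9 Mb in the vehicle list. The authors' −log10 p of a region, which grows with depth, had a median of 60.9 and a maximum of 1756 in knockout HSC, against 151 and 8849 in vehicle HSC. The authors' fold enrichment, the signal at the summit over the local background, had a median of 15.1 in knockout HSC and 10.2 in vehicle HSC. Both values were therefore ranked within their own list only. Fold enrichments given side by side below are the deposited values, not adjusted for this difference between lists. The HSC label was checked on 30 genes of stem cell identity, where 23 had an accessible region within 1 kb of a gene end in knockout HSC and 28 in vehicle HSC, against 12073 and 14301 of all 21887 genes. Wild-type HPC had 22 and wild-type HSC of 8 weeks 21 of the 30, so these ends do not separate HSC from progenitors. Mecom, Meis1, Procr, Hlf and Kit were open in both lists, and Gata2, Fli1, Tek, Slamf1 and Msi2 in vehicle HSC and not in knockout HSC, while macrophage markers were open at 5 of 12 genes in knockout HSC and at 3 of 12 in vehicle HSC. Markers of T, NK and B cells, of mast cells, basophils and eosinophils, and of endothelium and stroma were open at more genes in vehicle HSC. These are bulk lists, so fewer cells with an open site and a less open site per cell cannot be told apart.

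The promoters below carry the contrast between the lists. S100a8, a calcium-binding protein of neutrophils, and Trem1, a receptor that amplifies myeloid inflammation, were open in knockout HSC and not in vehicle HSC, and are shown as myeloid promoters of that class with no region in 8-week wild-type HSC; Csf2rb2, a cytokine receptor chain also in the class, had a fold enrichment of 22.9 in knockout HSC and 18.1 in wild-type HSC of 8 weeks. Zfp932, a zinc finger gene, had the strongest promoter region of that class. Fos, an immediate-early transcription factor, Selp, the adhesion molecule P-selectin that is known to rise in aged HSC, and Tek, the angiopoietin receptor that marks quiescent HSC, were open at the start in vehicle HSC and not in knockout HSC. Each line holds the 250 bases before the annotated start, 5′ to 3′ on the plus strand, from RefSeq on GRCm38.p6, at chr3:90668821-90669070 (S100a8), chr17:48232489-48232738 (Trem1), chr5:109996260-109996509 (Zfp932), chr12:85473640-85473889 (Fos), chr1:164115014-164115263 (Selp) and chr4:94739039-94739288 (Tek). Capitals mark matches, on either strand, to short motifs searched in all promoters. These were a TATA box (TATAAA) in S100a8 and Fos, a CCAAT box (CCAAT) in Zfp932 and Selp, a GC box (GGGCGG) in Fos and an AP-1 motif (TGANTCA) in Selp.
S100a8: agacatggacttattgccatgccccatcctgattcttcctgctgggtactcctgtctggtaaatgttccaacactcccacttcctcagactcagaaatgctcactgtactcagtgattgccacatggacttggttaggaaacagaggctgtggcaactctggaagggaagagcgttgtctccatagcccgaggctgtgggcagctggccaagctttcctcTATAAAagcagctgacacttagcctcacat
Trem1: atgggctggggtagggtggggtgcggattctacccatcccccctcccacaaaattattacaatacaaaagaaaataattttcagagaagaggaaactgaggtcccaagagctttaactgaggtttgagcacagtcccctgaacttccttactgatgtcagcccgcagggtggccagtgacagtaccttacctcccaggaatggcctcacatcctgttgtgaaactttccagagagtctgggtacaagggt
Zfp932: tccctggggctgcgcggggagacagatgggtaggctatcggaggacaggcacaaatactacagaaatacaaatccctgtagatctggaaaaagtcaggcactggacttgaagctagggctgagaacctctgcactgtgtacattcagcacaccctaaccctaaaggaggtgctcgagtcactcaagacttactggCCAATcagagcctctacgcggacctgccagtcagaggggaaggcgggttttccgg
Fos: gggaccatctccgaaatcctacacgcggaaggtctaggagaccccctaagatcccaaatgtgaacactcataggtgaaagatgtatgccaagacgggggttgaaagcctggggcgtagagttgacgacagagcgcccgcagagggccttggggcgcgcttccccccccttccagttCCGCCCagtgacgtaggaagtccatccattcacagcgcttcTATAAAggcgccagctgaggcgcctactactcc
Selp: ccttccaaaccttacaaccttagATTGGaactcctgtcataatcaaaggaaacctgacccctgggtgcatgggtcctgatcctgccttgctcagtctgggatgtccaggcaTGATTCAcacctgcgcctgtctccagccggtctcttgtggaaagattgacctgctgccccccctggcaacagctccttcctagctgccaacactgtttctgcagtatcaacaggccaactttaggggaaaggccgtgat
Tek: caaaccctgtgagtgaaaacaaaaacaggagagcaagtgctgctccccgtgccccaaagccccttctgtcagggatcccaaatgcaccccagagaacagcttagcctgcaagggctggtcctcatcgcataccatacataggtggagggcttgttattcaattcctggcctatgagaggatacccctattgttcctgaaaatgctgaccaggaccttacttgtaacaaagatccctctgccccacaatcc

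S100a8 and Fos both carry a TATA box in this window, although they lie on opposite sides of the comparison. The region over the S100a8 start had a fold enrichment of 8.13 in knockout HSC and 13.8 in wild-type HPC, and no region in the other lists. The region over the Trem1 start had 6.87 in knockout HSC, 19.9 in knockout HPC and 18.4 in wild-type HPC, and was in none of the 3 wild-type HSC lists. Both promoters thus ranked low in knockout HSC, at percentiles 1.72 and 7.32 of −log10 p in that list. The region over the Fos start had a fold enrichment of 8.54 in vehicle HSC, 8.31 after 5-fluorouracil, 6.40 in knockout HPC and 5.79 in wild-type HPC, and was in neither 8-week HSC list. By −log10 p it was a strong region of the vehicle list, at percentile 84.1, but its fold enrichment was below that list's median of 10.2.

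Nearly all accessible regions of knockout HSC were also accessible in vehicle HSC, and the reverse did not hold. Of 48620 knockout regions, 976 overlapped no vehicle region by even 1 bp, a share of 2.01% (95% Wilson interval 1.89 to 2.14). Of 80100 vehicle regions, 33945 overlapped no knockout region, a share of 42.4% (42.0 to 42.7). The intervals cover counting error over regions only, and neighbouring regions are not independent.

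Regions that were absent from the other list were weak ones in both directions. In the weakest decile of the knockout list by −log10 p, 520 of 4862 regions, 10.7%, were absent from vehicle HSC, against 4 of 4863 in the strongest decile. In the weakest decile of the vehicle list 95.9% were absent from knockout HSC, against 4 of 8010 regions in the strongest decile. The knockout-only regions were also narrow, with a median of 311 bp against 487 bp for knockout regions shared with vehicle HSC, and their median fold enrichment was 9.54 against 15.2. Vehicle-only regions had 466 bp and 6.31, against 756 bp and 14.8 for vehicle regions shared with knockout HSC. Both classes lay mostly away from genes' ends: 7.58% of knockout-only regions were at a gene end, against 26.0% of shared knockout regions, and 11.1% of vehicle-only regions, against 25.9% of shared vehicle regions. These shares are not matched for strength. In the weakest decile of the knockout list 7.31% of knockout-only and 16.8% of shared regions were at a gene end. In the weakest decile of the vehicle list the shares were 8.67% and 8.73%, and in its decile 5 they were 12.6% and 12.8%. At like strength the vehicle classes thus hardly differed. With regions redrawn as windows of 200 bp around their strongest summits the low share at gene ends did not hold for knockout HSC. There 3923 windows were knockout-only and gene ends held 36.0% of these, compared with 11.4% of vehicle-only windows.

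**Figure D1:**
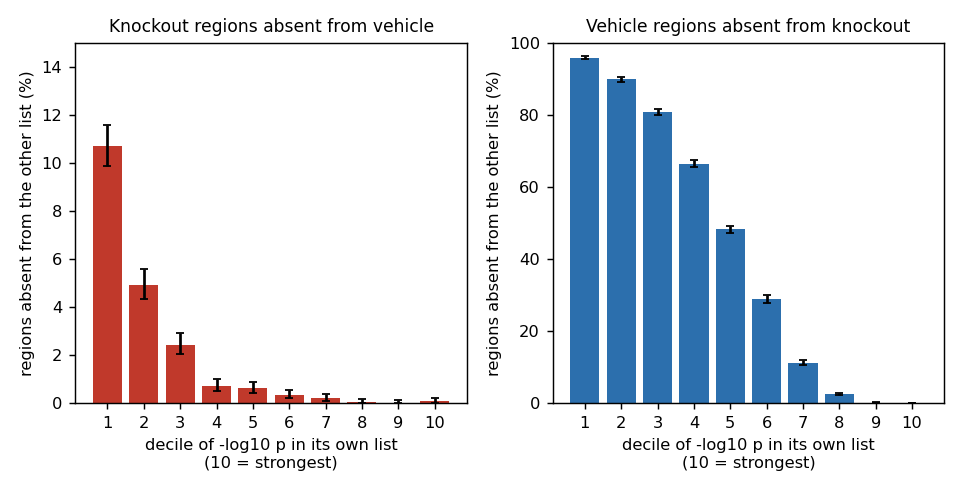
Share of regions absent from the other list (y axis, %; the scales differ) by decile of −log10 p within their own list (x axis, 10 is strongest), for knockout HSC on the left and vehicle HSC on the right. Bars are shares and lines 95% Wilson intervals; absence falls to nearly 0 in the strongest deciles of both lists, and is 10.7% for knockout and 95.9% for vehicle in the weakest.

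The comparison was repeated with both lists cut to their 48620 strongest regions. Then 6167 knockout regions had no partner among the vehicle regions kept, a share of 12.7% (12.4 to 13.0). There were 7634 vehicle regions with none in knockout HSC, 15.7% (15.4 to 16.0). With lists of equal length these counts can differ only where a region of either list overlaps several of the other. In the whole lists 1465 vehicle regions each held several knockout regions. With windows of 200 bp around summits both counts were 8906. The gap between 12.7% and 15.7% is therefore not read as a difference between the groups. Of those 6167 regions 5191 did overlap a region of the whole vehicle list that was too weak to be kept, so at equal number most knockout-only regions were ones that ranked higher in knockout HSC and were present, but lower, in vehicle HSC. The 7634 vehicle regions overlapped nothing in the knockout list at all.

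At equal number, agreement was lowest among the strongest regions, although all but 1 of the 1000 strongest knockout regions had a partner somewhere in the vehicle list. Among the 1000 strongest by −log10 p, 72.7% (69.9 to 75.4) of knockout regions were among the vehicle's 1000, and among the 40000 strongest 88.2% (87.9 to 88.5) were. Wild-type HSC of 8 weeks gave a similar curve against the same vehicle list, with 72.9% at 1000 and 87.2% at 40000. Knockout and wild-type HSC of 8 weeks shared 84.5% of their 1000 strongest regions, and 5-fluorouracil and vehicle HSC, both of 16 weeks, shared 92.0%. At the top, lists of the same age and number of pooled samples were thus the more alike. At 40000 regions knockout and wild-type HSC of 8 weeks shared 84.7%, which is nearly the whole of the wild-type list. The curves that use the vehicle list are not independent of each other. By fold enrichment in place of −log10 p, 55.8% of the 1000 strongest knockout regions were among the vehicle's 1000.

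**Figure D2:**
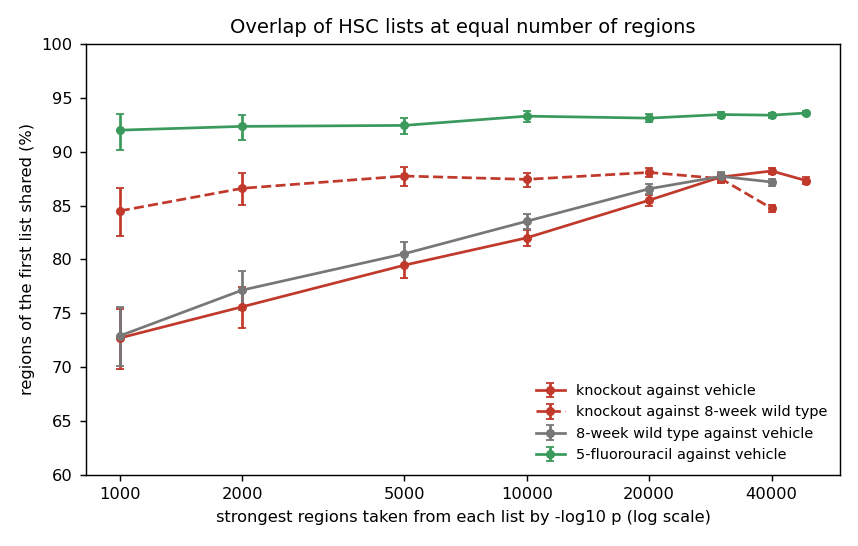
Share of the first-named list's strongest regions that overlap one of the equally many strongest regions of the second (y axis, %, starting at 60) against the number taken (x axis, log scale), with 95% Wilson intervals. Knockout and 8-week wild-type HSC follow nearly the same line against vehicle HSC, from 72.7% and 72.9% at 1000 regions to 88.2% and 87.2% at 40000.

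Single-list regions were then looked up in the lists that had not been used to define them. Of the 976 knockout-only regions, 424 (43.4%, 40.4 to 46.6) were in knockout HPC, 545 (55.8%, 52.7 to 58.9) in wild-type HPC, 127 (13.0%, 11.05 to 15.3) in wild-type HSC of 8 weeks and 272 (27.9%, 25.1 to 30.8) in HSC after 5-fluorouracil. Knockout regions shared with vehicle HSC were in these lists at 78.8%, 87.0%, 75.4% and 96.7%. The shared regions were stronger, so these shares are not matched for strength. In the weakest decile of the knockout list, 46.9% of knockout-only and 59.1% of shared regions were in wild-type HPC. There 3.65% and 20.5% were in wild-type HSC of 8 weeks, and 25.2% and 85.6% in HSC after 5-fluorouracil. As deposited, a knockout-only region was thus more often found in progenitors than in either other list of wild-type HSC, and more often in wild-type than in knockout progenitors. The wild-type HPC list is the longer of these, with 65832 regions against 52840 in knockout HPC. Knockout-only regions are by definition absent from vehicle HSC, and the other wild-type HSC lists mostly overlap that list. Only 286 of 40073 regions of wild-type HSC of 8 weeks were absent from it. At 48620 regions 93.6% of the 5-fluorouracil regions were shared with it. Few knockout-only regions could thus be found in these HSC lists, and the order is not read as likeness to progenitors. In no other list were 292 knockout-only regions, 29.9%.

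Vehicle-only regions showed another order, and vehicle regions shared with knockout HSC showed it too. Of 33945, 24.4% (23.9 to 24.8) were in knockout HPC, 39.4% (38.9 to 39.9) in wild-type HPC, 10.4% (10.1 to 10.7) in wild-type HSC of 8 weeks and 66.2% (65.7 to 66.7) after 5-fluorouracil. Shared vehicle regions were in these lists at 79.5%, 87.4%, 76.0% and 96.7%. In the weakest decile of the vehicle list 26.4% of vehicle-only and 35.2% of shared regions were in the 5-fluorouracil list. In decile 4 these shares were 88.4% and 87.3%. Vehicle-only regions were thus found again mostly in the other list of 16-week HSC, as shared ones were, and it is the longest list looked up. At equal number this was sharper, with 97.7% (97.3 to 98.0) of 7634 vehicle-only regions in the 5-fluorouracil list and 31.1% (30.1 to 32.1) in wild-type HSC of 8 weeks, and with 40.9% in knockout HPC and 62.1% in wild-type HPC. Of the 6167 knockout-only regions at equal number, 46.3% were in knockout HPC, 60.3% in wild-type HPC, 18.4% in wild-type HSC of 8 weeks and 67.6% in the 5-fluorouracil list, so the 5-fluorouracil list then came before both progenitor lists.

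**Figure D3:**
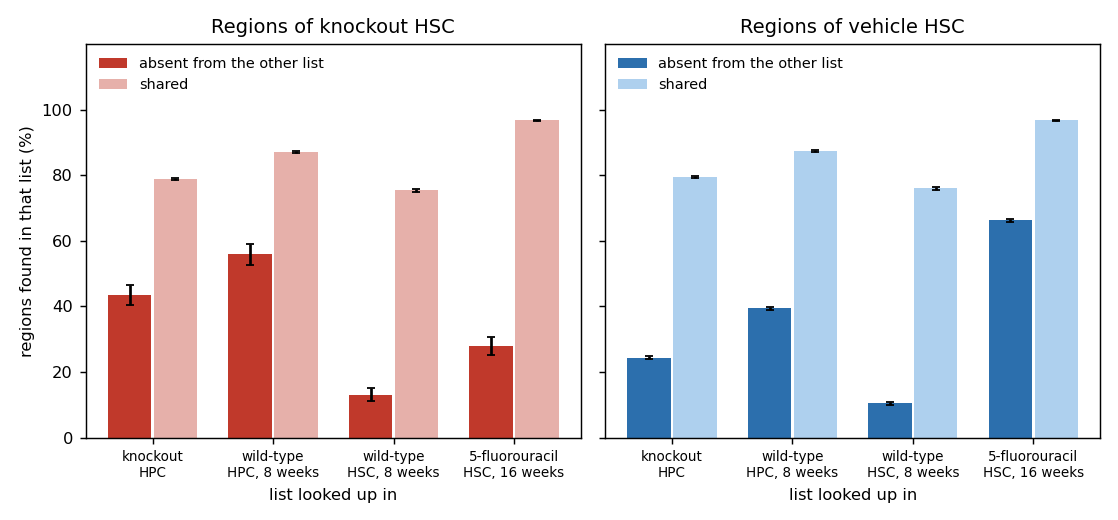
Share of regions found in each of the 4 lists not used to define the classes (y axis, %), for knockout HSC regions on the left and vehicle HSC regions on the right; dark bars are regions absent from the other list, pale bars shared regions, and lines are 95% Wilson intervals. Knockout-only regions were found most in wild-type HPC (55.8%) and vehicle-only regions most in 5-fluorouracil HSC (66.2%).

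Wild-type HSC of 8 weeks gave a similar count of regions absent from the vehicle list. With the knockout list cut to the 40073 regions that the wild-type list holds, 256 were absent from vehicle HSC, 0.639% (0.565 to 0.722), against 286 of the wild-type regions, 0.714% (0.636 to 0.801). The intervals overlap, and the cut takes the strongest knockout regions while the wild-type list is whole. Of the 256 knockout regions 70.3% were in wild-type HPC and 61.7% in knockout HPC, and of the 286 wild-type regions 65.4% and 47.2%.

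Where both lists had a region, its place and rank were close. In 44679 cases a single knockout region overlapped a single vehicle region. Their strongest summits lay a median of 9 bp apart, and 93.7% were within 50 bp. The vehicle region was the wider in 95.7% of pairs, with medians of 489 bp in knockout and 744 bp in vehicle HSC, and 86.8% of the knockout regions lay wholly inside their partner. Ranked within the pairs, fold enrichment had a Spearman correlation of 0.867 over these 44679 pairs, given as a description, since neighbouring regions, base composition and mapping are common to both lists. A further 1465 vehicle regions each held 2 or more knockout regions, up to 3.

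The strongest knockout-only regions were present in wild-type HSC of 8 weeks too. By fold enrichment, with no vehicle region within 1 kb, the first lay in Zfp804b, a zinc finger gene, at chr5:7277155-7277375. Its fold enrichment was 43.3 in knockout HSC, which ranked 4 in that list, with 42.9 in knockout HPC, 43.3 in wild-type HSC of 8 weeks and 48.4 in wild-type HPC. It was in neither 16-week list. All 8 of these regions were in wild-type HSC of 8 weeks, and 7 of 8 in knockout HPC.

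The region near Zfp932, at chr5:109996101-109996790, had 33.5 in knockout HSC, 31.9 in knockout HPC, 30.5 in wild-type HSC and 31.5 in wild-type HPC, and none at 16 weeks. A region near Col19a1, a collagen gene, at chr1:24612996-24613238, was first in the whole knockout list by −log10 p (1756) and had a fold enrichment of 30.7; after 5-fluorouracil it had 18.9, and in vehicle HSC there was none. Regions near Gm15448 and Cd209a, a lectin of dendritic cells, had 27.8 and 24.7 in knockout HSC and 25.2 and 21.4 in wild-type HSC of 8 weeks. Zfp932, Gm15448 and Cd209a belong to families of near-identical genes, where short reads may be placed on the wrong copy. Regions known for misplaced reads were not removed, and their part was not tested.

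The strongest vehicle-only regions were likewise mostly present in 8-week wild-type HSC, with a lower fold enrichment except in Slc8a1. A region with no protein-coding gene within 100 kb, at chr17:79472148-79472935, had a fold enrichment of 32.5 in vehicle HSC, 33.6 after 5-fluorouracil, 23.5 in wild-type HSC of 8 weeks and 9.19 in wild-type HPC, and was in neither knockout list. A region in Slc8a1, a sodium and calcium exchanger, at chr17:81480187-81480922 had 31.0 in vehicle HSC and between 31.7 and 37.9 in each of the other lists but knockout HSC; knockout HPC had 35.8. Regions near Scml4, a Polycomb-group protein, near Was, the actin regulator lost in Wiskott-Aldrich syndrome, and in the kinesin gene Kif27 had 27.4, 26.4 and 26.2 in vehicle HSC and 18.9, 15.7 and 19.6 in knockout HPC. Of these 8 regions 7 were in wild-type HSC of 8 weeks and 5 in knockout HPC, so most were not missing from both knockout lists.

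**Figure D4:**
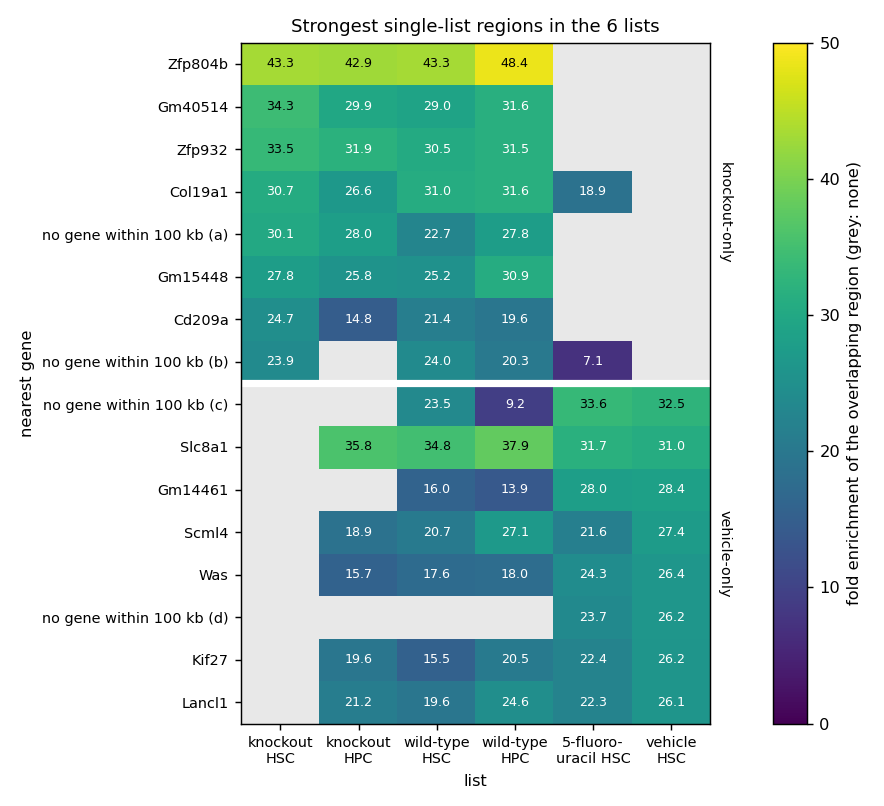
Fold enrichment (colour and number) in each of the 6 lists, shown as columns, for the 8 strongest knockout-only regions (above the white line) and the 8 strongest vehicle-only regions (below it), labelled by nearest gene. Grey means that no region overlapped; the knockout-only regions are filled across the 8-week lists, except for 1 that knockout HPC lacks, and all the vehicle-only regions are also in the 5-fluorouracil list.

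Regions of knockout HSC with nothing within 1 kb in any of the 3 wild-type HSC lists numbered 545, and many of them were regions of progenitors. Of these, 200 were in knockout HPC and 270 in wild-type HPC, with 176 in both; 24 were in knockout and not in wild-type HPC, and 251 in neither. The strongest with a gene nearby lay in Ttll9, which adds glutamate chains to tubulin, in Tln2, a talin that links integrins to actin, and near Aldh1a3, an enzyme of retinoic acid synthesis. Their fold enrichments were 19.5, 18.6 and 17.8 in knockout HSC. In wild-type HPC they had 27.1, 19.1 and 37.0, and in knockout HPC 25.4, 17.8 and 31.9. A region at an end of Riiad1 (fold enrichment 18.2) was in no other list.

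A small set of pairs changed rank strongly. Between the lists 150 of 44679 pairs stood over 50 percentile points of fold enrichment higher in knockout HSC and 106 stood that much higher in vehicle HSC, while the median difference was 8.13 points. The largest in the knockout direction lay in Map4, a microtubule-associated protein, with fold enrichments of 25.9 in knockout HSC and 1.86 in vehicle HSC, but 26.8 after 5-fluorouracil. Near Syk, a kinase of immune receptors, the values were 23.9 in knockout HSC and 3.67 in vehicle HSC, with 22.1 after 5-fluorouracil. Eif3m, a translation initiation factor gene, had 35.1 in knockout HSC and 9.11 in vehicle HSC, with 27.6 after 5-fluorouracil. In these 3 pairs the vehicle list stood apart from every other list. Near Tmprss13, a membrane protease, and in Nos1, a nitric oxide synthase, both 16-week lists were low: 27.5 and 27.7 in knockout HSC, against 6.51 and 8.20 in vehicle HSC and 3.79 and 7.36 after 5-fluorouracil.

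In the other direction the pair in Zfp934 had 7.56 in knockout HSC and 25.2 in vehicle HSC, and that near Crisp2, a sperm protein gene, 11.9 in knockout HSC and 32.3 in vehicle HSC. In Slc25a36, a mitochondrial pyrimidine carrier, the values were 9.54 in knockout HSC and 22.8 in vehicle HSC, and near Phf7 7.56 in knockout HSC and 19.6 in vehicle HSC. After 5-fluorouracil these 4 had 24.0, 24.2, 17.2 and 12.6. Wild-type HSC of 8 weeks were also below vehicle HSC, with 12.6 in Zfp934, 18.5 near Crisp2, 11.3 in Slc25a36 and no region near Phf7. Of these 4, only that near Phf7 was in knockout HPC, with 15.5. Among the other pairs named by the same rule, that in Cldn34a had 16.8 in knockout HPC. Those at chr5:43081685-43082194 and chr12:114468929-114469197 had 19.5 and 25.4 there, and that near Htr2c had none.

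Counted by nearest gene, more genes lay on the vehicle side than on the knockout side, except with windows of 200 bp around summits. At equal number 2786 of 21887 protein-coding genes (12.7%) had more knockout-only than vehicle-only regions, and 3645 (16.7%) had more vehicle-only ones. With the whole lists the shares were 0.658% and 50.7%. With the windows at equal number the order was reversed, with 3602 genes on the knockout side and 3455 on the vehicle side. The larger number of vehicle-only regions at equal number follows from vehicle regions that overlap several knockout regions. The order of the gene counts at equal number is therefore not read as a difference between the groups. The genes with the largest excess of knockout-only regions at equal number were Agap1, a GTPase-activating protein for Arf proteins, with 8 knockout-only and 1 vehicle-only region, Kcnj6, a potassium channel, and Lingo1, a neuronal receptor protein, with 7 and 0 each, and Ankrd11, a chromatin regulator, and Rbfox3, a splicing factor, with 6 and 0 each. Myo16 and Fstl4 had 6 and 1, and Apbb2 5 and 0. Of the 8 near Agap1, 6 overlapped a weaker vehicle region. None of the knockout-only regions near these 8 genes stood above the median of the knockout list by −log10 p.

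The genes with the largest excess of vehicle-only regions included 4 that encode transcription factors. Bach2, a repressor needed for lymphocyte development, had 0 knockout-only and 11 vehicle-only regions, and Sox5, Foxn3 and Nfia had 1 and 9, 1 and 8, and 4 and 10. Pde4d, which breaks down cyclic AMP, had 3 and 10, Cntnap2, a neuronal adhesion protein, 0 and 8, Cdkal1 0 and 7 and Gcnt2 0 and 6. All 11 Bach2 regions were in the 5-fluorouracil list, 10 were in wild-type HPC, 5 in knockout HPC and 3 in wild-type HSC of 8 weeks. Their fold enrichment in vehicle HSC ran between 4.10 and 13.1, and Bach2 had a further 22 knockout and 21 vehicle regions that were shared. All 10 Nfia regions were in the 5-fluorouracil list, 5 in knockout HPC, and 4 each in wild-type HPC and wild-type HSC of 8 weeks.

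Stem cell genes had regions in a single list in both directions. Of 30 genes of stem cell identity, 6 had more knockout-only regions at equal number (20%, against 12.7% of all genes) and 17 more vehicle-only ones (56.7%, against 16.7%), a median net of −1 against 0 over all genes. These genes have many regions, and the share of their regions in a single list was near the background: 14.9% of knockout regions were knockout-only, against 12.3% over all genes, and 17.1% of vehicle regions vehicle-only, against 15.3%. Runx1, a master regulator of HSC formation, had 4 and 0, Etv6, a repressor that adult HSC require, 5 and 1, and Thy1 and Fgd5 2 and 0 each. Mecom, which maintains HSC, had 1 knockout-only and 4 vehicle-only regions, and Meis1, the Hox cofactor, and Lmo2, a bridging factor of HSC, 0 and 2 each. All 4 knockout-only regions of Runx1 overlapped weaker vehicle regions: the strongest, at chr16:92575817-92576274, had a fold enrichment of 14.96 in knockout HSC and 7.93 in vehicle HSC, with 8.94 after 5-fluorouracil and 22.2 in wild-type HPC.

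Genes known to rise in aged HSC were more often on the vehicle side, the older of the groups. Of 21, 1 had more knockout-only regions (4.76%) and 11 more vehicle-only ones (52.4%), a median net of −1, and 35.1% of their vehicle regions were vehicle-only, against 15.3% over all genes; 15.6% of their knockout regions were knockout-only, against 12.3%. Aldh1a1, which makes retinoic acid, the chaperone gene Clu, the muscle protein gene Fhl1, Gpr183 and Selp had 0 knockout-only and 2 vehicle-only regions each, and the adhesion gene Jam2 had 3 and 0. All these regions of Aldh1a1, Clu and Fhl1 were in the 5-fluorouracil list and none in wild-type HSC of 8 weeks. Of all vehicle-only regions at equal number, 97.7% were in the 5-fluorouracil list and 31.1% in wild-type HSC of 8 weeks. Wild-type HPC, also of 8 weeks, had 2 of the Clu regions, 1 of Fhl1 and 0 of Aldh1a1. Age cannot be told apart from the other differences here.

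Of 22 genes of homing, adhesion and TGF-beta signalling, 4 had more knockout-only regions (18.2%, against 12.7% of all genes) and 13 more vehicle-only regions (59.1%, against 16.7%). Of their regions 11.9% of knockout ones were knockout-only, against 12.3% over all genes, and 22.0% of vehicle ones vehicle-only, against 15.3%. The counts were 2 and 5 for Tgfbr3, a TGF-beta co-receptor, 0 and 3 for Cd44, a receptor of hyaluronan, and 1 and 3 for Cd47, which protects cells from phagocytosis. All 3 Cd44 regions were in every list but that of knockout HSC, with fold enrichments between 13.2 and 17.2 in vehicle HSC and between 10.7 and 19.3 in knockout HPC. Of 26 interferon and antigen presentation genes, 2 had more knockout-only regions (7.69% of genes) and 9 more vehicle-only ones (34.6%). There 3.70% of knockout regions were knockout-only, below the 12.3% over all genes, and 16.1% of vehicle regions were vehicle-only, near the 15.3% over all genes; Irf2 and the interferon gamma receptor gene Ifngr1 had 0 and 3 each.

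The remaining groups are to be read against the 12.7% of all genes on the knockout side and the 16.7% on the vehicle side. Retinoid signalling genes were above it on both sides, with 7 of 12 (58.3%) on the knockout side and 5 (41.7%) on the vehicle side. Of 25 AP-1 and immediate-early genes 7 (28.0%) were on each side, with 2 knockout-only and 0 vehicle-only regions for Atf3 and 2 and 4 for Fos. Of 24 cell cycle genes 4 (16.7%) were on each side, with 0 and 5 for Cdk6, which drives exit from quiescence. Of 26 interleukin-1, TNF and NF-kB genes 6 (23.1%) had more knockout-only and 8 (30.8%) more vehicle-only regions, with 0 and 3 for Tnfaip3, an inhibitor of NF-kB, and 5 and 3 for Nfkb1. Of 17 genes of quiescence metabolism the counts were 2 and 6 (11.8% and 35.3%), although Foxo3, which keeps HSC quiescent, had 4 and 0. Of 33 COMPASS and other chromatin regulator genes, the family that Kmt2c belongs to, they were 7 and 9 (21.2% and 27.3%), with 2 and 6 for Arid1b, a subunit of a remodelling complex. Near the background on both sides, when counted by genes, were 22 myeloid genes with 3 and 4 (13.6% and 18.2%) and 22 erythroid and megakaryocyte genes with 4 and 3 (18.2% and 13.6%). The remaining counts were 5 and 7 of 25 lymphoid priming genes (20% and 28.0%), 3 and 7 of 24 p53 and apoptosis genes (12.5% and 29.2%) and 2 and 5 of 19 Hox genes (10.5% and 26.3%). Of 10 fetal HSC genes they were 1 and 4 (10% and 40%), and of 12 housekeeping genes 0 and 1 (0% and 8.33%). By regions in place of genes, 12.3% of knockout ones were knockout-only and 15.3% of vehicle ones vehicle-only over all genes. Below both shares were COMPASS (8.70% and 12.5%), cell cycle (7.69% and 11.8%), erythroid (7.35% and 5.08%), myeloid, NF-kB, quiescence and housekeeping genes. Above both were retinoid (21.0% and 20%), fetal HSC, lymphoid and Hox genes. AP-1 and p53 genes were above the vehicle share only.

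**Figure D5:**
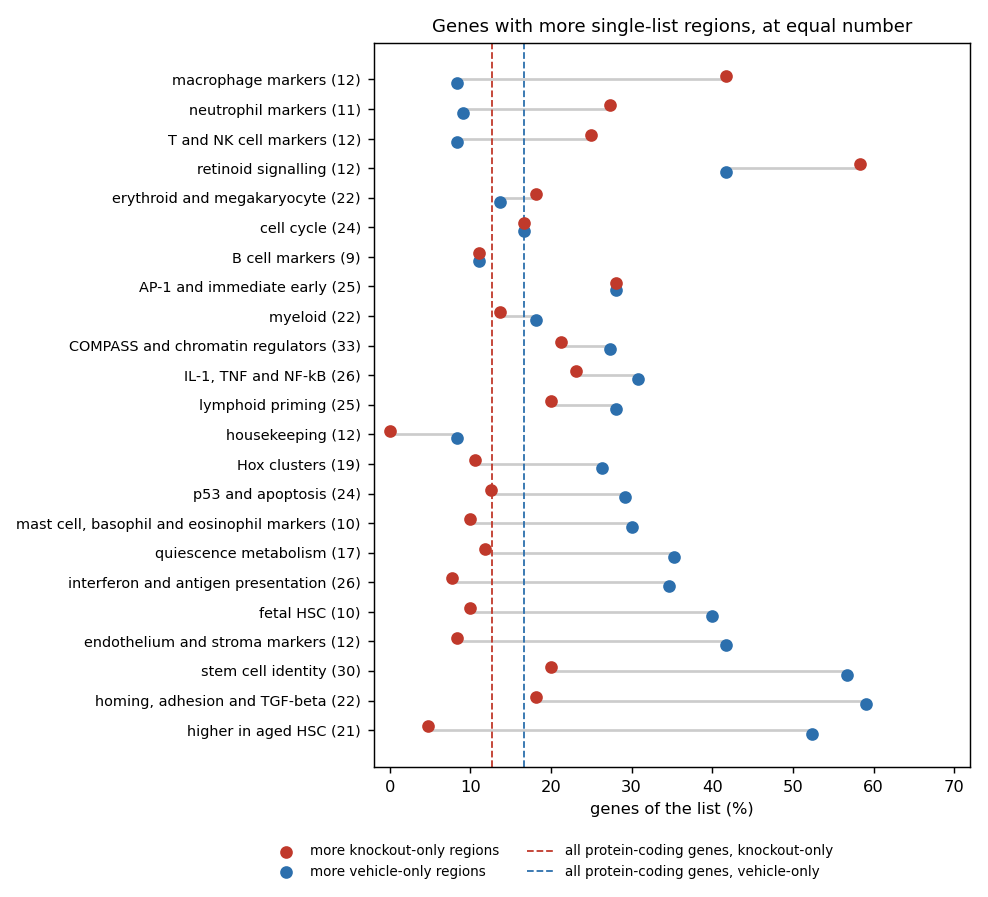
Percentage of each list's genes (x axis) with more knockout-only regions (red) or more vehicle-only regions (blue) at equal number; numbers in brackets are the genes counted and dashed lines are the shares over all protein-coding genes, 12.7% and 16.7%. Macrophage markers are at the top, with 41.7% of genes on the knockout side, and genes that rise in aged HSC at the bottom, with 52.4% on the vehicle side.

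Markers of other cell types were checked for each group. Of 12 macrophage markers 5 had more knockout-only and 1 more vehicle-only regions at equal number, and 10 of 23 knockout regions near these genes were knockout-only, 43.5%, against 12.3% over all genes. By genes the shares were 41.7% on the knockout side and 8.33% on the vehicle side, against 12.7% and 16.7% of all genes. Marco, a scavenger receptor of macrophages, accounted for 5 of the 10, with 0 vehicle-only regions. Against the same background, the counts of the other lists were 3 and 1 of 12 T and NK cell markers (25% and 8.33%), 1 and 1 of 9 B cell markers (11.1% each) and 3 and 1 of 11 neutrophil markers (27.3% and 9.09%). They were 1 and 3 of 10 markers of mast cells, basophils and eosinophils (10% and 30.0%), and 1 and 5 of 12 markers of endothelium and stroma (8.33% and 41.7%). By open gene ends, 5 of 12 macrophage markers were open in knockout HSC and 3 in vehicle HSC, and 3 of 11 neutrophil markers in knockout HSC and 2 in vehicle HSC. The remaining lists went the other way. In knockout and vehicle HSC, 4 and 6 T and NK cell markers and 3 and 5 B cell markers were open. For mast cells, basophils and eosinophils the counts were 2 and 5, and for endothelium and stroma 5 and 8. Of the 12 macrophage markers, C1qc, Cd68 and Mertk were open at an end in every list, Marco and Adgre1 in knockout HSC and not in vehicle HSC, and C1qa, C1qb, Cd5l, Siglec1, Vcam1, Mrc1 and Timd4 in neither. The part of such cells in the results was not tested.

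The Marco regions were also regions of progenitors. All 5 were in wild-type HPC, with fold enrichments between 7.07 and 32.6, and 4 were in knockout HPC, with 10.1 to 29.9. In knockout HSC they had between 9.01 and 14.7, and 3 of them overlapped vehicle regions with 5.97 to 9.45. The region at the end of Marco, at chr1:120474831-120475269, had 13.1 in knockout HSC and 7.07 in wild-type HPC and was in no other list. The macrophage receptor gene Adgre1, which encodes F4/80, had 1 knockout-only region, at chr17:57358512-57358808, with 11.9 in knockout HSC, 25.1 in knockout HPC and 27.5 in wild-type HPC. The Adgre1 region and 3 of the 5 Marco regions thus had higher fold enrichment in progenitors of both genotypes than in knockout HSC.

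Gene ends were open in a single list almost only on the vehicle side. Of 21887 protein-coding genes, 32 (0.146%) had a region at an end in knockout and not in vehicle HSC, and 2260 (10.3%) the reverse. The 32 included Marco, Adgre1, S100a8, Trem1, Dcstamp, which osteoclasts need to fuse, Csf2rb2, a cytokine receptor chain, and Notch3. Most of these ends were open in wild-type HPC. Ends open only in vehicle HSC included those of Gata2, a transcription factor that HSC require, Fli1, an ETS factor of blood and endothelium, Tek, Slamf1, the CD150 marker of HSC, and Msi2, an RNA-binding protein. None of Gata2, Fli1, Tek and Slamf1 was open at an end in 8-week wild-type HSC either, and all were open after 5-fluorouracil; Msi2 was open at both ages of wild-type HSC. None of the listed stem cell genes was open at an end in knockout HSC alone.

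The 300 bases around 21263 annotated starts of 17492 genes, taken with strand, gave the same order. Of these promoters 10404 (48.9%) overlapped a knockout region and 12778 (60.1%) a vehicle region, with 10380 in both. Counting only promoters whose region overlapped nothing in the other list, 22 were open in knockout HSC alone and 1833 in vehicle HSC alone. Of the 22, 13 were open in knockout HPC, 16 in wild-type HPC and 5 in wild-type HSC of 8 weeks. Of the 1833, 24.7% were open in knockout HPC, 44.1% in wild-type HPC, 15.8% in wild-type HSC of 8 weeks and 81.9% after 5-fluorouracil.

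Base composition and short motifs differed between these classes. The median GC content was 55.3% in the 22 knockout-only promoters and 61.3% in the 1833 vehicle-only ones, against 61.7% in promoters open in both and 47.7% in those open in neither. The ETS motif CCGGAAG was in 0 of the 22 and 7.97% of the 1833, against 19.8% of promoters open in both and 11.6% of all. The GC box GGGCGG was in 31.8% and 60.9%, against 67.9% and 46.2%, and the TATA box TATAAA, as in S100a8 and Fos above, in 18.2% and 8.35%, against 5.88% and 12.6%. The AP-1 motif TGANTCA was in 4.55% and 5.89%, against 4.33% of promoters open in both and 6.99% of all. Motifs were searched on both strands and may overlap; 22 promoters are few, and a match does not show that a factor binds.

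The deleted gene itself was still marked by open chromatin. At Kmt2c, on chromosome 5 from 25271795 to 25498855, knockout HSC had 3 regions, all shared with vehicle HSC, and vehicle HSC had 6. The region at the upper end of the gene had a fold enrichment of 6.98 in knockout HSC and 7.42 in vehicle HSC. Within its list it was at percentile 21.0 of −log10 p in knockout HSC, 30.4 in wild-type HSC of 8 weeks and 69.5 in vehicle HSC. By fold enrichment these percentiles were 5.85, 9.18 and 33.3. The labels do not give the deleted exons, so these regions do not check the deletion.

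Vav1, the haematopoietic signalling gene whose regulatory sequence drives the Cre transgene, ranked higher by −log10 p in both knockout lists. The region at its lower end, chr17:57278751-57279291, was at percentile 90.2 of −log10 p in knockout HSC and 94.1 in knockout HPC, against 78.4 in vehicle HSC, 64.8 in wild-type HSC of 8 weeks, 79.5 in wild-type HPC and 79.0 after 5-fluorouracil. The region inside the gene, chr17:57290121-57291235, was at percentile 99.9 in knockout HSC and 99.8 in knockout HPC, against 98.6 in vehicle HSC and between 96.8 and 98.3 in the remaining lists. By fold enrichment the end region had 14.6 in knockout HSC and 17.8 in knockout HPC, against 7.97 in vehicle HSC and 8.65 to 12.6 in the other lists. The inner region had 22.2 in knockout HSC and 19.3 in knockout HPC, against 19.3 in vehicle HSC, 22.0 in wild-type HSC of 8 weeks, 20.9 in wild-type HPC and 19.0 after 5-fluorouracil, so by fold enrichment the knockout lists did not stand above the others there. Ranked by fold enrichment within its list, the inner region was at percentile 79.6 in knockout HSC and 73.3 in knockout HPC, against 83.8 in vehicle HSC. The labels do not give the sequence of the transgene, and its part in these values was not tested.

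Single-list regions were also counted by place in the genome. The windows named are the extremes of all windows, and whether the regions were spread unevenly was not tested. In windows of 1 Mb at equal number the largest knockout excess was at chr16:94000001-95000000, around Kcnj6, Dyrk1a and Sim2, with 17 knockout-only and 2 vehicle-only regions. On chromosome 8 the window around Irf8 and Gse1 had 21 and 8, that around Cbfa2t3 and Zfpm1 16 and 3, and the next one, around Ankrd11, 14 and 2. The largest vehicle excess was at chr16:57000001-58000000, around Filip1l, with 0 and 14, then around Bach2 on chromosome 4, with 2 and 15, and around the Gimap genes of lymphocyte survival on chromosome 6, with 1 and 14. Windows around Tgfb1 on chromosome 7 and around Stat2 on chromosome 10 had 0 and 12, and 2 and 12.

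Chromosome X had the highest share of vehicle-only regions among the autosomes and X. At equal number 12.0% of knockout regions on X were knockout-only, and 21.1% of vehicle regions on X were vehicle-only, against 12.5% to 18.4% on the autosomes. The sex of the mice is not given in the labels. Regions at Y-linked genes ranked lower in knockout HSC: that of Ddx3y was at percentile 28.8 of −log10 p in knockout HSC and 79.0 in vehicle HSC, and that of Eif2s3y at 1.34 and 63.3, while Uty had none in knockout HSC and one at percentile 80.8 in vehicle HSC. Both lists had a region at Xist. A different mix of sexes in the pooled samples cannot be told apart from the other differences, and its part in the X-linked counts was not tested.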

How the data were processed

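ATAC-seq peak lists of 6 groups were used, with 1 list for all samples of a group; how reads were combined is not stated in the sources used here. Bowtie2, MACS2 and the build mm10 (GRCm38) are named in the submitters' processing notes, without versions. The labels name RNA as the molecule, which is at odds with the assay. The deposited fold enrichment (a ratio of signal to local background) and the deposited −log10 p are the authors' own values; the deposited score was not used. Read depth is unknown.

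Overlapping rows were merged into regions with the strongest value of each. A region was shared if it overlapped by 1 bp. Strength was ranked within a list by −log10 p unless stated. A gene was the nearest RefSeq body of 21887 protein-coding genes (GRCm38.p6) within 100 kb; the table has no strand, so both ends within 1 kb stood for the start. Shares carry 95% Wilson intervals; there was no test, since each group is 1 list. Genes and regions were named by fixed rules: per direction the 8 genes and 5 windows of 1 Mb with the largest net number of single-list regions, the 8 strongest regions and 8 largest rank differences, up to 4 members of each gene list by net number, Kmt2c and Vav1. Other members, ends, promoters and Y-linked genes were chosen after their values were seen. The members and lists were chosen with earlier results of these data known. Regions on chromosomes Y, M and 18 were counted and not otherwise named. Steps were checked on simulated lists. Of 439 listed genes 437 were in the gene table. Work was done in Python 3.11.15 with numpy 2.4.6, pandas 2.3.3, scipy 1.17.1 and matplotlib 3.10.9. Alternatives changed the overlap, the region shape, the threshold, the ranking, the number of regions, the chromosomes and the gene rule.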

Additional observations from a re-analysis of the deposited data

How the results depend on the processing

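Of 66 values under 11 alternatives, 46 stayed within 1.5 times the main count or within the interval of the main share. With windows of 200 bp around summits, 3923 regions were knockout-only, 38.2% of these were in wild-type HSC of 8 weeks and 36.0% at a gene end; of vehicle-only windows 10.996% were in that list and 11.4% at a gene end. Without the weakest 25% of each list, 431 regions were knockout-only, with 16.7% in wild-type HSC and 9.51% at a gene end; vehicle-only regions numbered 5060 at equal number, and of those in the lists so shortened 6.56% were in wild-type HSC and 14.9% at a gene end. With regions within 1 kb counted as shared, 5.38% of knockout-only regions and 9.78% of vehicle-only regions were at a gene end, and 11.6% of vehicle-only regions were in wild-type HSC. Among the 10000, 20000 and 30000 strongest, 1800, 2901 and 3706 knockout regions and 1831, 3098 and 4169 vehicle regions had no partner, fewer because fewer were taken. The other causes were not tested. No paired analysis was possible because each list pools all samples of its group, and for the same reason no replicate could be left out. Read depth is unknown, so a region missing from the shorter knockout list may not have been detectable there.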
